A study of Homo sapiens with 12 samples.

Results

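MDA-MB-231 cells grown in 3D inside Matrigel were compared with the same line grown flat in 2D, in 6 of the 12 RNA sequencing libraries of a study of matrix-regulated genes in cancer cells. MDA-MB-231 is an established human cell line from a triple-negative breast cancer, and Matrigel is a basement membrane extract of a mouse tumour. The 6 libraries were those titled as MDA-MB-231 in 3D (n = 3) and in 2D (n = 3), and the other 6 are the lung cancer line A549 in both cultures. All cells were kept in DMEM with 10% FBS and were given no treatment. RNA was extracted on day 4 in 3D and at about 80% confluence in 2D, so the cultures differ in density and time as well as in the matrix, and these cannot be told apart. Libraries were made from total RNA with a stranded kit that removes ribosomal RNA. Whether the 3 libraries of a group are separate cultures is not stated, so the p-values reflect the spread among these libraries and that spread may be technical.

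A basement membrane is a sheet of laminins, type IV collagen, nidogen and perlecan that cells bind through integrins and dystroglycan. Breast epithelial cells read this sheet as a cue for polarity and differentiation, while MDA-MB-231, a mesenchymal and invasive line, grows in Matrigel as loose stellate colonies. Cells inside a gel also meet a softer surface than plastic and receive oxygen and nutrients by diffusion, which is the usual setting in which hypoxia, amino acid and sterol sensing genes are read.

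The libraries were checked against the label and against each other before the results. Genes typical of the line were high in all 6 libraries, with a sum of 6440.2 to 6772 TPM over 10 markers in 3D and 6999.8 to 7106 TPM in 2D, and vimentin (VIM) averaged 3052 ± 91.9 TPM in 3D and 2961 ± 27.5 TPM in 2D. One of those markers, SPARC, was near 0 in every library. Total expected counts ranged from 11624620 to 19838477 in 3D and from 19624283 to 21227363 in 2D. Mean fragment length was 181 to 188 bases in 3D and 208 to 217 bases in 2D. Ribosomal RNA took 4.01% to 6.5% of counts in 3D and 1.12% to 1.18% in 2D, and the 50 most abundant genes took 16.3% to 18.7% in 3D and 11.7% to 12.02% in 2D. For fragment length, ribosomal RNA and the top 50 genes, all 3D libraries lay on 1 side of all 2D libraries (exact two-sided permutation test, p = 0.1 each, which is the lowest possible here). The biological coefficient of variation between replicates was 0.0546 in 3D and 0.0537 in 2D, and no pair of libraries of a culture agreed within sampling noise.

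Across genes, most of the transcriptome differed between the cultures, and the difference followed the base composition of the transcripts. Of 27968 genes 13663 passed the filter on low counts. By edgeR's quasi-likelihood test 10965 of them (80.3%) passed an adjusted p of 0.05, 5487 higher in 3D (40.2%) and 5478 lower (40.1%). At least 2-fold changes were fewer, with 1632 higher (11.9%) and 1825 lower (13.4%). A test that asked for a change beyond 2-fold called 2077 genes (15.2%), 960 higher (7.03%) and 1117 lower (8.18%). The median over all genes tested was -0.0042 on the log2 scale, and the central 50% of genes lay between -0.62 and 0.60. The medians of gene lists below stand beside that median. Their counts stand beside the shares of all genes, 40.2% higher and 40.1% lower, and a list near those shares shows no trait of its own. CPM of the libraries did not overlap between the cultures for 11206 genes (82%). List members named below were in part picked by smallest p. That their libraries lie apart is therefore largely given by the choice. A log2 fold change is given throughout as 3D over 2D, with ± SE where an error is shown, and levels are TMM-normalised CPM, as mean ± SD over 3 libraries. On the log2(TPM + 1) scale, also cited below, the median of all genes was -0.33, so a value there is read beside that median.

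Genes with GC-rich transcripts were higher in 3D and those with AT-rich transcripts lower. Among 13492 genes with a known GC content, Spearman's rho between GC content and the log2 fold change was 0.67, a description across genes, which are not independent and share the same 6 libraries. The median log2 fold change was -0.87 for the 2007 genes under 40% GC, of which 88.7% fell. It was 0.81 for the 1987 genes of at least 60% GC, of which 79.5% rose. In A549 the same medians were -0.24 and 0.19, with rho at 0.13. The trend moves together with the fragment length and ribosomal RNA content of the libraries given above, and its source was not tested. List counts below, and the values of many genes, are therefore also given from a fit in which each library's trend with GC content and gene length was removed, called trend-adjusted. Its median over all genes was -0.0223. It called 9252 of 13492 genes (68.6%), 4456 higher (33%) and 4796 lower (35.5%). Trend-adjusted counts and medians of lists stand beside these values and not beside those of the main fit. Of the genes called in both fits, 6072 had the same direction and 1676 the opposite one. For at least 2-fold changes the counts were 562 higher and 1049 lower, and 1188 genes passed that rule in both fits. 

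**Figure D1:**
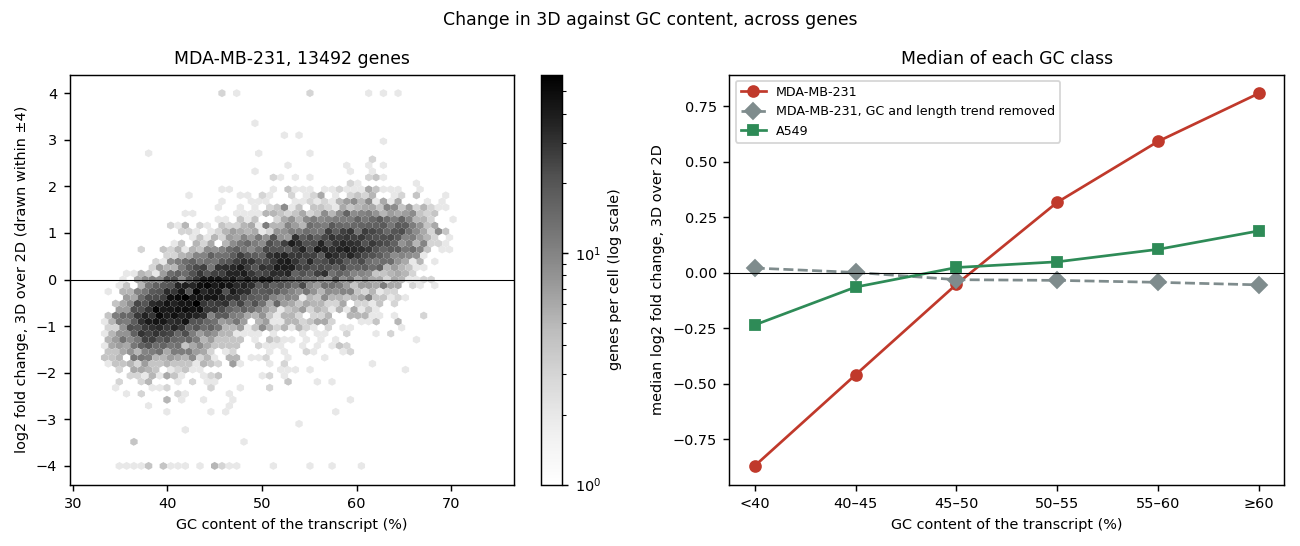
Left, each gene's GC content (%) against its log2 fold change of 3D over 2D in MDA-MB-231 (grey shade, genes per hexagon on a log scale, values drawn within ±4). Right, the median log2 fold change of each GC class in MDA-MB-231, in MDA-MB-231 after the GC and length trend was removed, and in A549; the median climbs across the classes to 0.81 in MDA-MB-231 and lies between -0.24 and 0.19 in A549.

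The largest rises were of a nerve growth factor receptor and of genes that present antigen. The 15 rises and 15 falls were picked among genes whose libraries do not overlap between the cultures, which holds for 82% of genes. That the libraries are apart is therefore given by the choice. NGFR, which encodes the p75 neurotrophin receptor, had 63.4, 69 and 74.5 CPM in the 3D libraries, against 0.698, 0.654 and 0.359 CPM in the 2D libraries. The 3D libraries lay far above the 2D ones, with a change of 6.91 ± 0.14 on the log2 scale (edgeR adjusted p = 1.73e-14) that was 6.19 trend-adjusted. Among the 15 were 7 MHC class II genes, described further on. IL24, a cytokine of the interleukin-10 family, had 63.7, 50 and 50.7 CPM in the 3D libraries, against 3.4, 2.85 and 3.19 CPM in the 2D libraries (4.11 ± 0.12). SECTM1, a membrane protein that binds CD7 on T cells, had 50.4, 54.3 and 53.3 CPM in the 3D libraries, against 3.88, 3.22 and 2.74 CPM in the 2D libraries (4.00 ± 0.10). For both genes every 3D library lay far above every 2D one. The interferon-induced gene IFI27 averaged 42.4 ± 2.64 CPM in 3D and 3.91 ± 0.543 CPM in 2D. VIPR1, a receptor of vasoactive intestinal peptide, averaged 64.4 ± 2.27 CPM in 3D and 6.16 ± 0.279 CPM in 2D. MUSK, a receptor kinase of the nerve-muscle synapse, averaged 18.8 ± 1.41 CPM in 3D and 1.84 ± 0.35 CPM in 2D. COL4A6, a chain of basement membrane collagen, averaged 17.7 ± 1.42 CPM in 3D and 1.75 ± 0.226 CPM in 2D. CSF3, the granulocyte growth factor G-CSF, averaged 318 ± 2.61 CPM in 3D and 32.4 ± 5.03 CPM in 2D. Trend-adjusted log2 fold changes of these genes were 4.06 for IL24, 3.20 for SECTM1, 2.37 for IFI27, 2.89 for VIPR1, 3.27 for MUSK, 2.96 for COL4A6 and 2.47 for CSF3.

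The 15 largest falls were of 5 non-coding RNAs and 10 protein-coding genes. LINC02582, a long non-coding RNA, had 0, 0.163 and 0.341 CPM in the 3D libraries, against 34.5, 31.4 and 37.7 CPM in the 2D libraries. Its 3D value rests on 9 counts over the 3 libraries against 2302 in 2D, a log2 fold change of -7.44 ± 0.22. PGM5, a phosphoglucomutase-related protein of adhesion sites, had 0.369, 0.109 and 0.17 CPM in the 3D libraries, against 14.7, 14.1 and 14.6 CPM in the 2D libraries, again with 9 counts in all in 3D. KISS1, the metastasis suppressor gene that encodes kisspeptin, had 0.646, 0.924 and 0.568 CPM in the 3D libraries, against 30.2, 30.3 and 28.4 CPM in the 2D libraries (-5.34 ± 0.14, edgeR adjusted p = 2.59e-13). The 2D libraries of each of these 3 genes lay well above the 3D ones. Other falls were of TENM1, a teneurin of neuronal contacts (-4.02), UCA1, a non-coding RNA first found in bladder cancer (-3.74), SLCO1B3, an organic anion transporter (-3.74), and SCARA3, a scavenger receptor of oxidant defence (-3.73). The nuclear RNAs MALAT1 and NEAT1 fell too. NEAT1, the scaffold of paraspeckles, had 17.6, 18.2 and 17 CPM in the 3D libraries, against 211, 182 and 192 CPM in the 2D libraries. MALAT1, a resident of nuclear speckles, had 2.12, 7.93 and 12.2 CPM in the 3D libraries, against 111, 86 and 98.3 CPM in the 2D libraries, so its 3D libraries were more widely spread than its 2D ones. The rest of the 15 were MIR3142HG (-3.49), the host gene of a microRNA, ELOVL7, a fatty acid elongase (-3.41), NRK (-3.22), a kinase, IL18, an inflammasome cytokine (-3.19), ZNF114 (-3.19), a zinc finger gene, and LTB4R, a receptor of leukotriene B4 (-3.12). All 15 falls and, where a GC value was known, all 15 rises kept their call and direction in the trend-adjusted fit; HLA-DRB4 had no GC value.

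**Figure D2:**
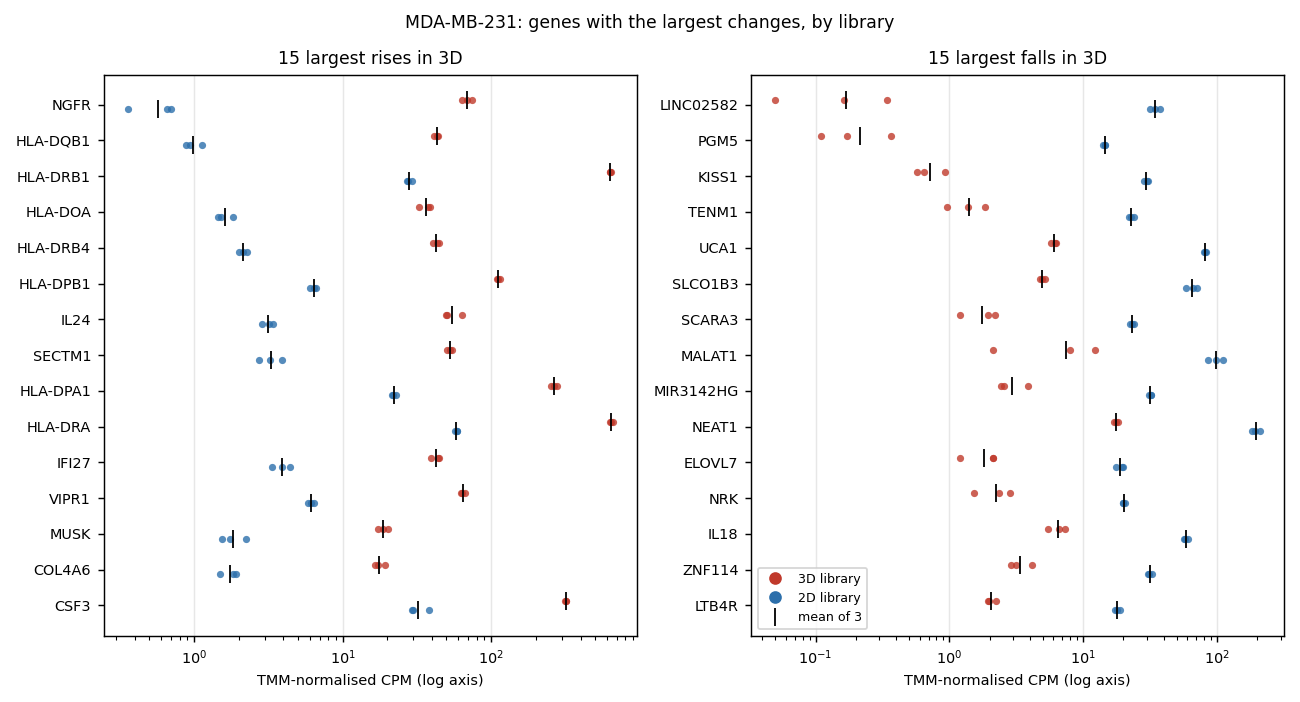
TMM-normalised CPM (log axis) of the 15 largest rises (left) and falls (right) in MDA-MB-231, one red point per 3D library, one blue point per 2D library, and a bar at each mean. The 3D and 2D points are apart for every gene because the genes were picked for that. A library of LINC02582 at 0 is drawn at 0.05.

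MHC class II genes rose together in 3D. These proteins load peptides for helper T cells, and their genes are switched on by the co-activator CIITA, which is recruited by a promoter complex of RFX, CREB and NF-Y proteins. Of the genes listed all 17 passed the filter, of which 15 rose and 1 fell, with a median log2 fold change of 3.04. Trend-adjusted, 14 rose and 1 fell, with a median of 2.42. CIITA itself had 43.4, 46.6 and 50.3 CPM in the 3D libraries, against 7.98, 8.82 and 7.64 CPM in the 2D libraries, which is 2.53 ± 0.09 on the log2 scale (adjusted p = 3.09e-12 in edgeR). HLA-DRA, the alpha chain of the HLA-DR receptor, had 639, 659 and 634 CPM in the 3D libraries, against 58.6, 58.8 and 57.4 CPM in the 2D libraries (3.47 ± 0.05). CD74, the invariant chain that guards the peptide groove, had 1232, 1353 and 1373 CPM in the 3D libraries, against 154, 186 and 142 CPM in the 2D libraries (3.04 ± 0.09). The 3D libraries of each gene lay far above its 2D libraries. HLA-DRB1, the beta chain that pairs with HLA-DRA, averaged 635 ± 4.32 CPM in 3D and 28 ± 1.05 CPM in 2D. HLA-DPA1, the alpha chain of HLA-DP, averaged 264 ± 12.4 CPM in 3D and 22.2 ± 0.638 CPM in 2D. HLA-DPB1, its beta chain, averaged 111 ± 2.38 CPM in 3D and 6.39 ± 0.331 CPM in 2D. HLA-DQB1, a beta chain of HLA-DQ, was close to absent in flat culture and averaged 42.9 ± 1.44 CPM in 3D and 0.988 ± 0.129 CPM in 2D. HLA-DRB4 averaged 42.6 ± 1.86 CPM in 3D and 2.15 ± 0.123 CPM in 2D. HLA-DOA, a modulator of loading, averaged 36.3 ± 3.31 CPM in 3D and 1.61 ± 0.209 CPM in 2D. HLA-DMA and HLA-DMB, which encode the peptide editor HLA-DM, rose by 2.31 and 2.86, and HLA-DQA1 held 56 counts over the 3D libraries and 1 count over the 2D ones. The cathepsin gene CTSS, whose protease trims CD74, rose by 1.60. The HLA genes share sequence with each other and vary between people, so the split of reads between them is uncertain. Of the RFX subunit genes RFXAP fell (-0.85), RFX5 had 90.7 ± 4.87 CPM in 3D and 75.7 ± 2.02 CPM in 2D (-0.16 on the log2(TPM + 1) scale), and RFXANK had 40.8 ± 0.414 CPM in 3D and 19.7 ± 2.05 CPM in 2D, with a trend-adjusted value of 0.12 that did not pass.

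Promoters of these genes are shown because the CCAAT box, the site of NF-Y, is part of the known class II promoter. They are the 250 bases before and 50 after the gene start from RefSeq on GRCh38.p14, 5′ to 3′ on the gene's strand, with CCAAT or its reverse complement ATTGG in capitals. HLA-DQB1 is at chr6:32666608-32666907, minus strand, HLA-DOA at chr6:33009542-33009841, minus strand and CD74 at chr5:150412861-150413160, minus strand.
HLA-DQB1: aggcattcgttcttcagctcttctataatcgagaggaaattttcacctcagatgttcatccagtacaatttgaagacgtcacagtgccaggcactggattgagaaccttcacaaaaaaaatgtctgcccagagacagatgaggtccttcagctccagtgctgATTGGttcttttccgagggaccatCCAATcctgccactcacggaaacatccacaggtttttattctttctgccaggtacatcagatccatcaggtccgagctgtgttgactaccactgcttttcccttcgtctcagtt
HLA-DOA: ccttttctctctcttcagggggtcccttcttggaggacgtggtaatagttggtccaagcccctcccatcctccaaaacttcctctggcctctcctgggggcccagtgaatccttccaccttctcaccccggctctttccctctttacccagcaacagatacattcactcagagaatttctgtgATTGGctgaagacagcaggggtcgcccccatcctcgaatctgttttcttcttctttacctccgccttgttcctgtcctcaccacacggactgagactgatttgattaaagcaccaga
CD74: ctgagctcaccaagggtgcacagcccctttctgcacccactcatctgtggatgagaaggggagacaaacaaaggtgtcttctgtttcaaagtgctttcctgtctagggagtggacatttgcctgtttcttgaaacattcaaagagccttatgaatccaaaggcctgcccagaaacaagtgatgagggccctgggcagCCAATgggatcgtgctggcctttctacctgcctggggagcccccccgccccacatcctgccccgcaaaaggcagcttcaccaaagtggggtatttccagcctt
On either strand CCAAT occurred in 10 of 12 promoters available for genes of this list that rose (83.3%), against 35.7% of 27305 promoters of the same length. The 12 include those of the regulators RFX5, with 2 matches, and RFXANK, with 0. This is a count of letters and says nothing of binding.

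**Figure D3:**
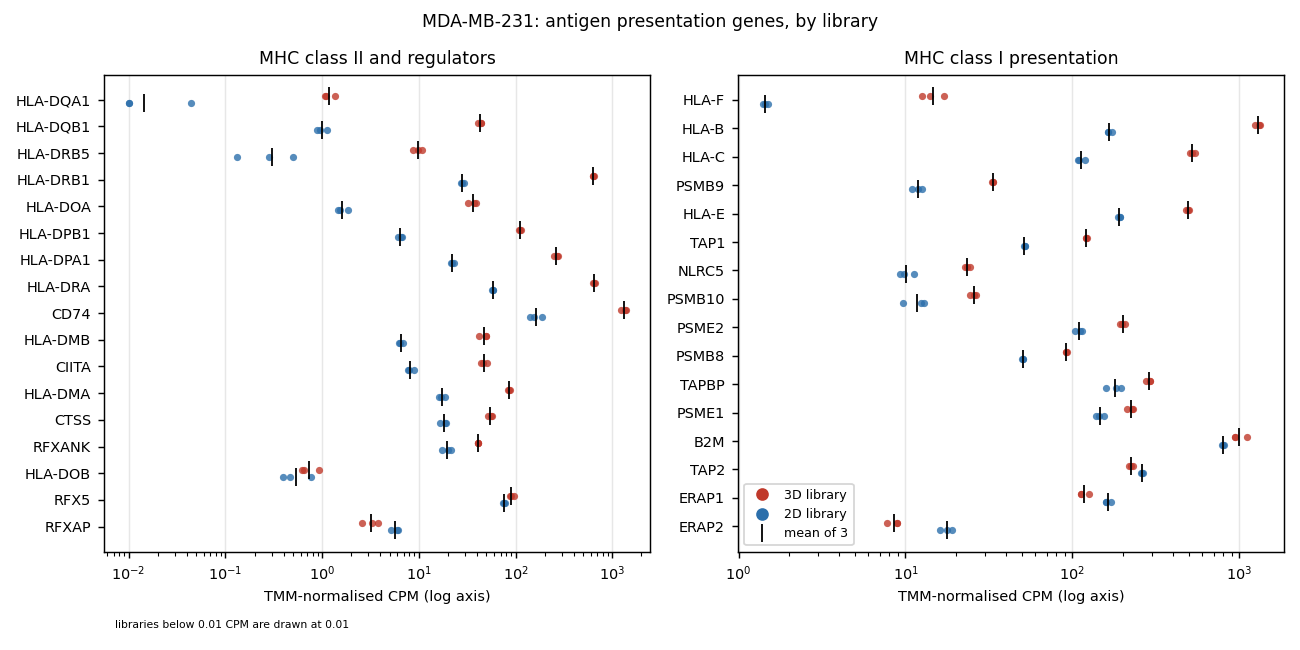
TMM-normalised CPM (log axis) of MHC class II genes and their regulators (left) and of MHC class I presentation genes (right), one red point per 3D library, one blue point per 2D library, and a bar at each mean of 3, with values below 0.01 drawn at 0.01. The class II chains from HLA-DQA1 down to HLA-DMA have 3D libraries above every 2D library; RFXAP, TAP2, ERAP1 and ERAP2 lie the other way.

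MHC class I presentation also rose, with a smaller change. Of its genes 17 of 18 passed the filter, of which 14 rose and 3 fell, with a median log2 fold change of 1.12. Trend-adjusted, 12 rose and 2 fell, with a median of 0.66. HLA-B had 1321, 1244 and 1310.3 CPM in the 3D libraries, against 163, 172 and 163 CPM in the 2D libraries (2.96 ± 0.05). HLA-C rose by 2.22, HLA-E by 1.36 and HLA-F by 3.30. NLRC5, the class I counterpart of CIITA, averaged 23.5 ± 0.775 CPM in 3D and 10.1 ± 1.06 CPM in 2D. PSMB9, an immunoproteasome subunit, averaged 33.4 ± 0.255 CPM in 3D and 11.8 ± 0.798 CPM in 2D. TAP1, of the peptide pump, averaged 121 ± 1.21 CPM in 3D and 51.6 ± 0.555 CPM in 2D. The aminopeptidase genes ERAP1 and ERAP2, which trim peptides, fell by 0.48 and 1.06 on the log2 scale, and the trend-adjusted value of ERAP1 was 0.34.

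Interferon-stimulated genes went both ways. Among them 46 of 47 passed the filter, of which 22 rose (47.8%) and 16 fell (34.8%), with a median log2 fold change of 0.11. Over all genes the shares were 40.2% higher and 40.1% lower, not far from these. Changes of at least 2-fold leaned to higher, with 12 members higher and 2 lower. Over all genes 11.9% were higher and 13.4% lower by that rule. Trend-adjusted, 19 rose and 10 fell, with a median of 0.14. BST2, the antiviral tether tetherin, had 186, 168 and 182 CPM in the 3D libraries, against 50.4, 42.8 and 43.4 CPM in the 2D libraries (1.97 ± 0.07, trend-adjusted 1.08). IFITM1, a membrane protein that blocks viral entry, averaged 31.9 ± 0.533 CPM in 3D and 10.7 ± 0.565 CPM in 2D. OAS2, a sensor of double-stranded RNA, averaged 69.8 ± 0.471 CPM in 3D and 34.3 ± 1.55 CPM in 2D, with a trend-adjusted change of 1.10. On the other side IFIT1, a protein that binds viral RNA caps, averaged 50.8 ± 1.59 CPM in 3D and 95.1 ± 3.45 CPM in 2D. Its trend-adjusted value was -0.32.

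Cytokine, chemokine and NF-kB target genes rose more often than they fell. Here 41 of 45 passed the filter, of which 28 rose and 8 fell, with a median log2 fold change of 0.83. Trend-adjusted, 25 rose and 10 fell, with a median of 0.37. SAA1, an acute phase protein, averaged 458 ± 18.1 CPM in 3D and 51 ± 4.16 CPM in 2D (3.16 ± 0.06), and the complement gene C3 706 ± 37 CPM in 3D and 126 ± 9.88 CPM in 2D (2.48 ± 0.06). LCN2, an iron-scavenging lipocalin, averaged 80.6 ± 13.4 CPM in 3D and 14.5 ± 1.2 CPM in 2D (2.48). CXCL1, a neutrophil-attracting chemokine, averaged 305 ± 19.8 CPM in 3D and 95.2 ± 5.94 CPM in 2D. PTGS2, the inducible cyclooxygenase, had 75.7, 76.1 and 69.7 CPM in the 3D libraries, against 18.1, 17.3 and 19.99 CPM in the 2D libraries, a log2 fold change of 2.00 ± 0.07 that was 3.05 trend-adjusted. IL6 had 88.8 ± 1.66 CPM in 3D and 33 ± 2.62 CPM in 2D. IL1A averaged 36.4 ± 4.21 CPM in 3D and 11.4 ± 1.41 CPM in 2D. CXCL8, a neutrophil chemokine, had 401 ± 28.9 CPM in 3D and 407 ± 12.9 CPM in 2D, which did not pass (edgeR adjusted p = 0.737) but was 0.98 trend-adjusted and -0.46 where the length trend alone was removed, so its direction depends on the fit. CCL2, the monocyte chemokine, fell to 2.76 ± 0.813 CPM in 3D, against 12.2 ± 1.5 CPM in 2D (-2.12). Of 13 leukocyte markers 5 passed the filter, CD14, LYZ, CD68 and CSF1R higher and PTPRC lower. The 13 summed to 249 to 276 TPM in 3D and 131 to 149 TPM in 2D, of which CD68, a lysosomal protein gene, made up most (240.0 ± 12.7 TPM in 3D and 134 ± 9.41 TPM in 2D). The markers CD3E, MS4A1, FCGR3A, NKG7 and TYROBP were at 0 in all 6 libraries, and PTPRC, the pan-leukocyte CD45, held 3 counts in 3D and 36 in 2D.

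Glycolysis genes rose almost throughout. Of the genes listed 22 of 23 passed the filter, of which 21 rose and 0 fell, with a median log2 fold change of 1.15. Trend-adjusted, 19 rose and 0 fell, with a median of 0.67. PGK1, which makes ATP late in the pathway, had 1886, 1832 and 1807 CPM in the 3D libraries, against 647, 591 and 641 CPM in the 2D libraries, so the cultures were well apart (1.56 ± 0.05, edgeR adjusted p = 3.49e-12). Its trend-adjusted change was 1.93. ALDOA, the aldolase, averaged 1534 ± 46.9 CPM in 3D and 525 ± 30.1 CPM in 2D (1.55, trend-adjusted 0.67). SLC16A3, the lactate exporter MCT4, rose by 1.76 ± 0.06. PFKFB4 and PFKFB3, which make the activator of phosphofructokinase, rose by 1.90 and 1.31, and the glucose transporter genes SLC2A3 and SLC2A1 by 1.15 and 0.83. LDHA, which turns pyruvate into lactate, averaged 4297 ± 48.1 CPM in 3D and 2803 ± 21.7 CPM in 2D. The member without a call was LDHB, a lactate dehydrogenase subunit, with 703 ± 54 CPM in 3D and 639.9 ± 43.7 CPM in 2D. It passed at 0.17 without 2D replicate 3 and at 0.19 without 3D replicate 3, and at -0.31 on the log2(TPM + 1) scale. HK2 and PKM, which open and close the pathway, had small rises of 0.21 and 0.66, and trend-adjusted values of 0.05 and 0.05 that did not pass. On the log2(TPM + 1) scale HK2 was lower, at -0.20, though above the median of all genes on that scale (-0.33).

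Genes induced by hypoxia rose in most members. Of its genes 38 of 39 passed the filter, of which 27 rose and 7 fell, with a median log2 fold change of 0.64. Trend-adjusted, 30 rose and 4 fell, with a median of 0.68. DDIT4, an inhibitor of mTORC1, had 223, 213 and 222 CPM in the 3D libraries, against 35.2, 31.3 and 33.8 CPM in the 2D libraries (2.71 ± 0.06). NDRG1, a stress-induced gene, averaged 488 ± 16.8 CPM in 3D and 63.4 ± 4.16 CPM in 2D. VEGFA, the vessel growth factor, averaged 346 ± 12 CPM in 3D and 90.4 ± 3.07 CPM in 2D. BNIP3, a mitophagy receptor, averaged 264 ± 17.6 CPM in 3D and 75.5 ± 1.16 CPM in 2D. ANGPTL4, an inhibitor of lipoprotein lipase, averaged 60.5 ± 5.14 CPM in 3D and 10.6 ± 1.19 CPM in 2D. CA9, the hypoxia marker carbonic anhydrase, was low in both cultures at 2.84 ± 0.345 CPM in 3D and 0.535 ± 0.232 CPM in 2D (2.39 ± 0.27). All 6 kept their rise in the trend-adjusted fit, with BNIP3 at 1.92 (1.81 in the counts), ANGPTL4 at 1.63 (2.51) and CA9 at 1.55 (2.39). HIF1A encodes a subunit of the hypoxia-inducible factor and is controlled mainly at the protein level. It had 334 ± 22 CPM in 3D and 566 ± 14.3 CPM in 2D, a fall of 0.76 on the log2 scale that was a rise of 0.31 trend-adjusted. PDK1, the kinase that shuts pyruvate dehydrogenase, had 20.2 ± 0.504 CPM in 3D and 16.2 ± 1.62 CPM in 2D and a trend-adjusted change of 1.00, but 0.034 on the log2(TPM + 1) scale, where it did not pass.

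Promoters of PGK1 (chrX:78103998-78104297, plus strand) and CA9 (chr9:35673678-35673977, plus strand) are shown with ACGTG and its reverse complement CACGT in capitals, the core of the element to which hypoxia-inducible factors bind.
PGK1: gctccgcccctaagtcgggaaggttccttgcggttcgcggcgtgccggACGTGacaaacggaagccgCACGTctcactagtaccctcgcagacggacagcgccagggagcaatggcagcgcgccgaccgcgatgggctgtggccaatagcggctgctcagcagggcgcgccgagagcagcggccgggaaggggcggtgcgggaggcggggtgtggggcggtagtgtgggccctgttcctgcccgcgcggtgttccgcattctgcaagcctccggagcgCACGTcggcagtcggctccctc
CA9: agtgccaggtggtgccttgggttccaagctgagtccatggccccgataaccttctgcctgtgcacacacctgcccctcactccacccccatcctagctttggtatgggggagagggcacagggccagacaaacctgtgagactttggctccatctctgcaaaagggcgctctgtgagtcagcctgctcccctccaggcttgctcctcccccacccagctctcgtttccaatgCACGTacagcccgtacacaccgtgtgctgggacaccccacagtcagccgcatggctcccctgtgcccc
ACGTG occurred on either strand in 11 of 22 promoters of hypoxia-induced genes that rose (50%) and in 8 of 20 of glycolysis genes that rose (40%), against 21.6% of all 27305. These windows do not reach more distant enhancers. Members of these lists that did not rise were not counted, and a count of letters says nothing of binding.

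The nuclear genes of the mitochondrial respiratory chain were mostly higher in the counts, and fewer rose once the GC and length trends were removed together. Of these all 45 passed the filter, of which 38 rose and 3 fell, with a median log2 fold change of 0.63. Trend-adjusted, 23 rose and 8 fell, with a median of 0.16. ATP5F1D, a subunit of ATP synthase, averaged 40.3 ± 3.89 CPM in 3D and 11.5 ± 0.762 CPM in 2D (1.80, trend-adjusted 0.38). NDUFS8, an iron-sulphur subunit of complex I, averaged 128 ± 5.98 CPM in 3D and 42 ± 6.06 CPM in 2D (1.61, trend-adjusted 0.42). NDUFS1, the largest subunit of complex I, did not pass in the counts at -0.03. Of the cytosolic ribosomal protein genes all 62 passed the filter, of which 61 rose and 0 fell, with a median log2 fold change of 0.75. Trend-adjusted, 42 rose and 15 fell, with a median of 0.26. RPL10 averaged 1382 ± 67.3 CPM in 3D and 459.9 ± 26.5 CPM in 2D (1.59, trend-adjusted 1.28). RPS19 averaged 562 ± 33.9 CPM in 3D and 209 ± 3.31 CPM in 2D (1.42, trend-adjusted 0.44). These short genes have many processed pseudogenes, so their counts are uncertain. Genes of ribosome biogenesis went both ways. Of these all 34 passed the filter, of which 15 rose and 11 fell, with a median log2 fold change of 0.04. Trend-adjusted, 9 rose and 17 fell, with a median of -0.09, so the balance depends on the fit, and in the counts the shares were near those of all genes (40.2% higher and 40.1% lower).

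Sterol and fatty acid synthesis genes fell more often than they rose. The pathway is driven by the SREBP transcription factors, which leave the endoplasmic reticulum when sterol is low. Of the genes listed all 32 passed the filter, of which 10 rose and 18 fell, with a median log2 fold change of -0.26. Trend-adjusted, 5 rose and 23 fell, with a median of -0.44. SCD, the desaturase of stearate, had 89.1, 90.4 and 96.7 CPM in the 3D libraries, against 284, 289 and 292 CPM in the 2D libraries, so every 3D library was below the 2D ones (-1.64 ± 0.05, trend-adjusted -1.48). STARD4, a sterol carrier, averaged 10.5 ± 1.42 CPM in 3D and 48.5 ± 5.16 CPM in 2D. MSMO1, a sterol demethylase, averaged 11.1 ± 1.63 CPM in 3D and 42.9 ± 2.99 CPM in 2D. SQLE, the squalene oxidase, averaged 12.4 ± 1.43 CPM in 3D and 24.1 ± 0.872 CPM in 2D. These falls held in the trend-adjusted fit, with STARD4 at -0.99, MSMO1 at -1.14 and SQLE at -0.84. PMVK averaged 50.7 ± 7.06 CPM in 3D and 17.7 ± 1.83 CPM in 2D and was 0.60 trend-adjusted. LSS was higher too, at 0.86, and 0.34 trend-adjusted.

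Stress-response genes of the amino acid and secretory pathways rose in part. Among targets of ATF4, the factor translated when amino acids run short, 34 of 35 passed the filter, of which 27 rose and 4 fell, with a median log2 fold change of 0.71. Trend-adjusted, 25 rose and 4 fell, with a median of 0.36. ASNS, the asparagine synthetase, had 84.4, 66.5 and 67.9 CPM in the 3D libraries, against 29.3, 29.2 and 27.4 CPM in the 2D libraries (1.34 ± 0.09, trend-adjusted 1.36). SESN2, a leucine sensor, averaged 19.1 ± 1.09 CPM in 3D and 5.89 ± 0.943 CPM in 2D. TRIB3, an inhibitor of ATF4 signalling, averaged 42.3 ± 1.19 CPM in 3D and 14.6 ± 0.611 CPM in 2D. SLC38A2, a glutamine transporter, fell to 143 ± 26.5 CPM in 3D, against 446 ± 21.6 CPM in 2D, and SLC7A11, the cystine transporter, had 26.1 ± 1.79 CPM in 3D and 49.7 ± 4.47 CPM in 2D with a trend-adjusted value of 0.10 that did not pass. The letters TGATGCAA, a form of the element that ATF4 binds, were found on either strand in 1 of 18 promoters of the list's genes that rose (5.6%), that of CHAC1, against 0.9% of all promoters. In the unfolded protein response list all 25 passed the filter, of which 17 rose and 5 fell, with a median log2 fold change of 0.49. Trend-adjusted, 20 rose and 1 fell, with a median of 0.44. HSPA5, the chaperone BiP, averaged 1687 ± 0.814 CPM in 3D and 1033 ± 30.4 CPM in 2D. XBP1, whose messenger is spliced in this response, averaged 111 ± 5 CPM in 3D and 54.3 ± 2.8 CPM in 2D. SDF2L1, a partner of BiP, averaged 10.3 ± 0.895 CPM in 3D and 2.67 ± 0.723 CPM in 2D. Heat shock genes went both ways. Of these 25 of 27 passed the filter, of which 10 rose and 13 fell, with a median log2 fold change of -0.16. Trend-adjusted, 5 rose and 10 fell, with a median of -0.04. HSPH1, a nucleotide exchange factor, was lower at -1.34 (trend-adjusted -0.55) and HSPB1, a small heat shock protein, was higher at 1.63 (trend-adjusted 0.43).

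Oxidant defence, iron storage and lysosome genes were mostly higher. Of the targets of NRF2 and redox genes 33 of 35 passed the filter, of which 24 rose and 7 fell, with a median log2 fold change of 0.50. Trend-adjusted, 23 rose and 6 fell, with a median of 0.34. HMOX1, the heme oxygenase, had 20.01, 20.3 and 22.1 CPM in the 3D libraries, against 3.75, 3.74 and 4 CPM in the 2D libraries (2.44 ± 0.10, trend-adjusted 1.69). FTH1, the heavy chain of ferritin, averaged 1715 ± 33.9 CPM in 3D and 509.9 ± 37.6 CPM in 2D. FTL, the light chain, averaged 2318 ± 37.3 CPM in 3D and 690.4 ± 26.1 CPM in 2D. Both have processed pseudogenes and are uncertain. NFE2L2, which encodes NRF2, fell to 104 ± 6.54 CPM in 3D, against 153 ± 1.57 CPM in 2D, and TFRC, the transferrin receptor, had 371 ± 37.7 CPM in 3D and 607 ± 31.6 CPM in 2D with a trend-adjusted value of -0.06 that did not pass. In the iron and metallothionein list 20 of 25 passed the filter, of which 12 rose and 7 fell, with a median log2 fold change of 0.26. Trend-adjusted, 10 rose and 2 fell, with a median of 0.34. Of the lysosome genes all 30 passed the filter, of which 24 rose and 5 fell, with a median log2 fold change of 0.69. Trend-adjusted, 19 rose and 5 fell, with a median of 0.45. CTSD, an aspartic cathepsin, averaged 1213 ± 57.5 CPM in 3D and 290.4 ± 21.4 CPM in 2D (2.06, trend-adjusted 1.20). CTSB, a cysteine cathepsin, averaged 636 ± 10.4 CPM in 3D and 300.2 ± 13.2 CPM in 2D. PSAP, the precursor of the saposins, averaged 816 ± 24.8 CPM in 3D and 383 ± 17.5 CPM in 2D. TFEB, a master regulator of lysosome genes, averaged 4.81 ± 0.456 CPM in 3D and 1.55 ± 0.115 CPM in 2D. Of the proteasome genes all 31 passed the filter, of which 19 rose and 7 fell, with a median log2 fold change of 0.33. Trend-adjusted, 12 rose and 6 fell, with a median of 0.06.

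Mitosis genes fell more often than they rose. Of the genes listed all 42 passed the filter, of which 6 rose and 30 fell, with a median log2 fold change of -0.62. Trend-adjusted, 7 rose and 28 fell, with a median of -0.28. NUF2, part of the kinetochore, had 54.2, 45.8 and 49 CPM in the 3D libraries, against 141, 131 and 147 CPM in the 2D libraries (trend-adjusted -0.77). NUSAP1, which bundles spindle microtubules, averaged 152 ± 6 CPM in 3D and 334 ± 16.8 CPM in 2D (-1.14, trend-adjusted -0.70). BUB1B, a checkpoint kinase, averaged 107 ± 1.46 CPM in 3D and 197 ± 8.49 CPM in 2D (-0.87, trend-adjusted -0.41). CENPE, a kinetochore motor, averaged 90.2 ± 1.75 CPM in 3D and 261 ± 12.9 CPM in 2D (-1.53, trend-adjusted -0.43). The 2D libraries were higher than the 3D ones in each. MKI67, the proliferation marker Ki-67, was on the other side with 796 ± 106 CPM in 3D and 612 ± 23.1 CPM in 2D (0.38 ± 0.08, trend-adjusted 0.21, but -0.04 on the log2(TPM + 1) scale), as was BIRC5, which encodes survivin (0.45, trend-adjusted 0.16, but 0.020 on the log2(TPM + 1) scale, where it did not pass). TOP2A, the topoisomerase of dividing cells, fell by 0.74 on the log2 scale and was 0.12 trend-adjusted. CDK1, the mitotic kinase, had a fall of 0.82 and was 0.17 trend-adjusted. Of the S-phase genes all 43 passed the filter, of which 10 rose and 24 fell, with a median log2 fold change of -0.20. Trend-adjusted, 6 rose and 25 fell, with a median of -0.20. CCNE2, a cyclin of S-phase entry, averaged 17.7 ± 0.879 CPM in 3D and 53.1 ± 2.24 CPM in 2D (-1.59, trend-adjusted -0.50). E2F8, a repressor of late S phase, averaged 16.3 ± 0.485 CPM in 3D and 39.8 ± 0.874 CPM in 2D. PCNA, the sliding clamp of DNA replication, averaged 223 ± 10.7 CPM in 3D and 333 ± 16.6 CPM in 2D, while TK1, thymidine kinase, rose to 159 ± 3.27 CPM in 3D, against 68.6 ± 6.66 CPM in 2D.

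Promoters of the mitosis genes BUB1B (chr15:40160819-40161118, plus strand), KIF11 (chr10:92592880-92593179, plus strand) and CCNB2 (chr15:59104896-59105195, plus strand) are shown with TTTGAA and its reverse complement TTCAAA in capitals, the cell cycle homology region through which the DREAM complex is known to act.
BUB1B: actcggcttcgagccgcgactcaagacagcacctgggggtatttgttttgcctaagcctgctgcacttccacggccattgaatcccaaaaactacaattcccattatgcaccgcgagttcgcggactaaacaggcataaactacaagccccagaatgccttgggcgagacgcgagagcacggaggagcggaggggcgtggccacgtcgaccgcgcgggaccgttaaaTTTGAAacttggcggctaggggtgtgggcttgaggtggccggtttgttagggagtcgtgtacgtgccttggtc
KIF11: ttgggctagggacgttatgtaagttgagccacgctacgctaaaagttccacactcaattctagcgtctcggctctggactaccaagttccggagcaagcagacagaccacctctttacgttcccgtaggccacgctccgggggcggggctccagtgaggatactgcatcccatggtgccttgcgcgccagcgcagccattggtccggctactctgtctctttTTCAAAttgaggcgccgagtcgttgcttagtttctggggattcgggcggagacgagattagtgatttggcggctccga
CCNB2: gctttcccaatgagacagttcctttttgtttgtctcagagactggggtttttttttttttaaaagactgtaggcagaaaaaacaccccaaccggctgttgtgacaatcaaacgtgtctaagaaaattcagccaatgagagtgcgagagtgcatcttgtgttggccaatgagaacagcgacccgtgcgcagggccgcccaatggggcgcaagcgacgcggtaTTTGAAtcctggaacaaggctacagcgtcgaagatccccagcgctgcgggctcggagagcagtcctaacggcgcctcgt
On either strand TTTGAA was present in 21 of 26 promoters of mitosis genes that fell (80.8%), against 15.4% of all promoters. Mitosis genes that did not fall were not counted, so this share cannot tell falling genes from mitosis genes in general. It is a count of letters and says nothing of binding. Of the 3 genes shown, KIF11, a spindle motor, had 163 ± 12.3 CPM in 3D and 264 ± 12.5 CPM in 2D. Its trend-adjusted value was 0.24. CCNB2, a mitotic cyclin, had 114 ± 4.71 CPM in 3D and 144 ± 4.21 CPM in 2D with a trend-adjusted value of -0.35.

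Genes that set the G1 decision went both ways. Of these 16 of 18 passed the filter, of which 9 rose and 7 fell, with a median log2 fold change of 0.26. Trend-adjusted, 6 rose and 7 fell, with a median of -0.01. CCND2, a D-type cyclin, had 7.65, 8.48 and 7.89 CPM in the 3D libraries, against 1.13, 0.514 and 1.48 CPM in the 2D libraries, so all 3D libraries were above the 2D ones (2.93 ± 0.22, trend-adjusted 3.19). CDKN1A, the inhibitor p21, averaged 166 ± 2.52 CPM in 3D and 67.2 ± 6.1 CPM in 2D (1.30, trend-adjusted 0.67). MYC averaged 204 ± 8.38 CPM in 3D and 142 ± 12.4 CPM in 2D, a rise that did not pass on the log2(TPM + 1) scale (0.11). RBL2, a pocket protein of the DREAM complex, averaged 22 ± 0.831 CPM in 3D and 49.7 ± 4.07 CPM in 2D. CDKN1A is also a p53 target. Of that list 31 of 32 passed the filter, of which 11 rose (35.5%) and 12 fell (38.7%), with a median log2 fold change of 0.02. These shares were near those of all genes (40.2% higher and 40.1% lower). Trend-adjusted, 12 rose and 13 fell, with a median of 0.03. Among its death genes BMF averaged 7.83 ± 0.0605 CPM in 3D and 2.17 ± 0.274 CPM in 2D. BIK averaged 7.8 ± 0.459 CPM in 3D and 1.78 ± 0.241 CPM in 2D (2.13, trend-adjusted 1.28). PMAIP1, which encodes NOXA, averaged 63.1 ± 4.32 CPM in 3D and 147 ± 9.49 CPM in 2D.

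Collagen genes went both ways, also among those of type IV. Of the genes listed 19 of 24 passed the filter. Of these 8 rose (42.1%) and 9 fell (47.4%), with a median log2 fold change of -0.17. The shares were not far from those of all genes (40.2% higher and 40.1% lower). Trend-adjusted, 7 rose and 11 fell, with a median of -0.82. COL4A5 and COL4A6 lie head to head on chromosome X and encode chains of a minor collagen IV network, and both rose. COL4A5 had 57.3, 59.8 and 58.1 CPM in the 3D libraries, against 13.2, 12.8 and 13.4 CPM in the 2D libraries (2.15 ± 0.07). COL4A6 had 17.3, 16.5 and 19.2 CPM in the 3D libraries, against 1.92, 1.49 and 1.84 CPM in the 2D libraries (3.33 ± 0.13). COL4A1 and COL4A2, a head-to-head pair that encodes the chains of the main network, fell. COL4A1 had 20.5, 20.5 and 21.8 CPM in the 3D libraries, against 79.8, 78.1 and 80.3 CPM in the 2D libraries (-1.92 ± 0.06). COL4A2 had 97.7, 102 and 109 CPM in the 3D libraries, against 203, 189.99 and 179.9 CPM in the 2D libraries (-0.89 ± 0.06). The 2 cultures did not overlap for any of these genes, as held for 82% of all genes. All 4 kept their direction trend-adjusted, at 2.03, 2.96, -2.33 and -1.57. COL6A1 and COL6A2, chains of microfibrillar collagen VI, fell by 0.33 and 1.26 on the log2 scale, with trend-adjusted values of -1.05 and -2.13. COL7A1, the anchoring fibril chain, fell by 0.99, while COL5A1, a fibril nucleator, rose by 1.13 and COL1A1, the main chain of type I collagen, averaged 11 ± 0.393 CPM in 3D and 5.46 ± 0.968 CPM in 2D.

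Laminin genes also went both ways. Among laminins and other basement membrane genes 20 of 22 passed the filter, of which 12 rose and 6 fell, with a median log2 fold change of 0.27. Trend-adjusted, 4 rose and 11 fell, with a median of -0.26. LAMA4, the laminin chain of vessels and stroma, had 4.52, 3.53 and 3.52 CPM in the 3D libraries, against 29.1, 32.2 and 29.7 CPM in the 2D libraries, a fall with a log2 fold change of -3.01 ± 0.11 (trend-adjusted -2.84). LAMA3, a chain of the epithelial laminin of hemidesmosomes, averaged 74.6 ± 3.76 CPM in 3D and 34.6 ± 0.501 CPM in 2D. LAMB3, its beta chain partner, averaged 668 ± 17.9 CPM in 3D and 381 ± 23.9 CPM in 2D, and both rose in both fits (trend-adjusted 0.97 and 0.26). LAMA5 and HSPG2, which encodes perlecan, rose by 1.17 and 1.12 in the counts, but both are GC-rich and were 0.13 and 0.05 trend-adjusted, the second without a call. Of the matricellular list 19 of 28 passed the filter, of which 10 rose and 5 fell, with a median log2 fold change of 0.44. Trend-adjusted, 8 rose and 8 fell, with a median of 0.31. THBS1, the thrombospondin that activates TGF-beta, had 1583, 1641 and 1629 CPM in the 3D libraries, against 637, 631 and 631 CPM in the 2D libraries (1.35 ± 0.05, trend-adjusted 1.58). CD44, the hyaluronan receptor, averaged 1944 ± 86.8 CPM in 3D and 1061 ± 8.27 CPM in 2D. FN1, fibronectin, averaged 801 ± 59.9 CPM in 3D and 517 ± 21.4 CPM in 2D. SPOCK1, a proteoglycan, averaged 3.84 ± 0.236 CPM in 3D and 13.4 ± 1.15 CPM in 2D. EFEMP1, a fibulin, averaged 79.2 ± 6.31 CPM in 3D and 157 ± 2.63 CPM in 2D.

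**Figure D4:**
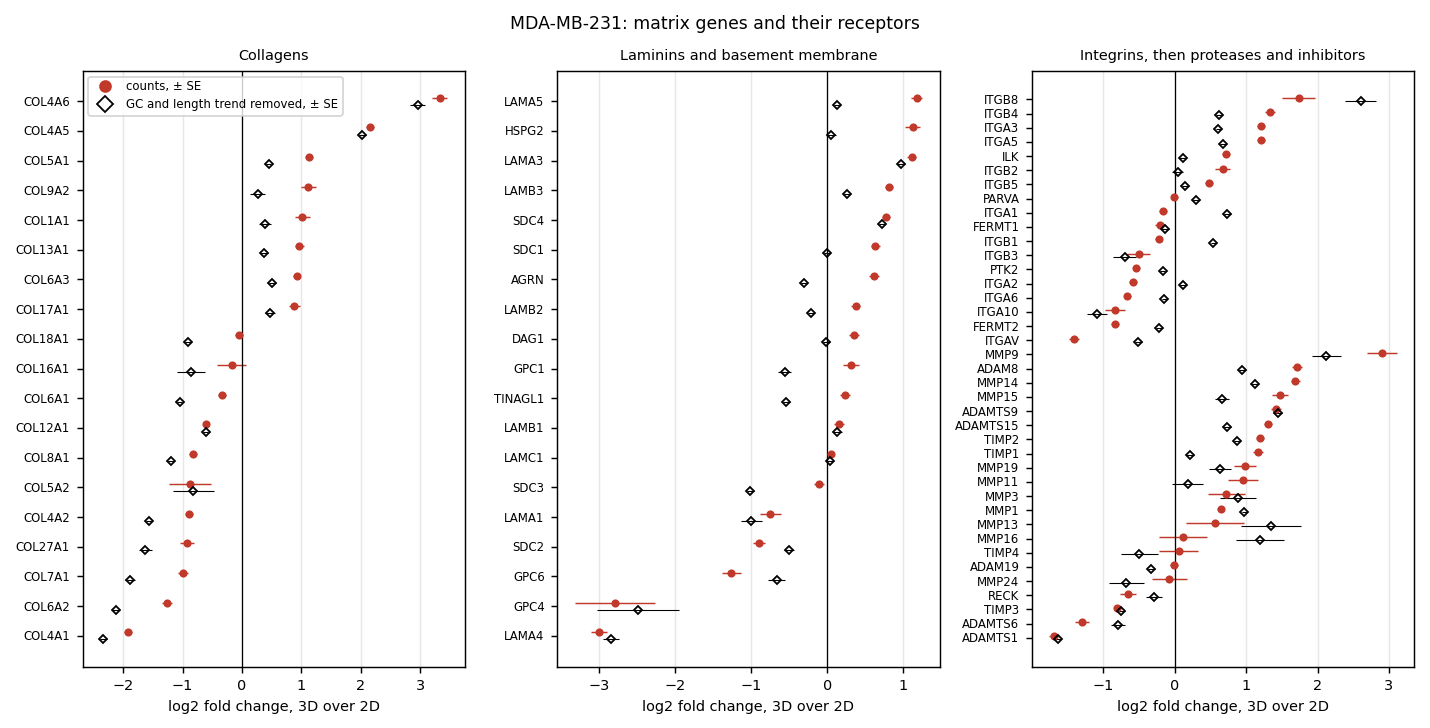
Log2 fold change of 3D over 2D with ± SE for tested collagens (left), laminins and basement membrane genes (middle), and integrins followed by metalloproteinases and inhibitors (right), from the counts (red points) and with the GC and length trend removed (open diamonds). COL4A6 and COL4A5 stand at 3.33 and 2.15 and COL4A1 at -1.92; most laminin-related diamonds lie to the left of their points.

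Integrins, the receptors for these proteins, differed by subunit. Of the genes listed 18 of 24 passed the filter, of which 7 rose and 10 fell, with a median log2 fold change of -0.19. Trend-adjusted, 10 rose and 6 fell, with a median of 0.12. ITGB4, the hemidesmosome subunit that binds laminin, had 139, 139 and 149 CPM in the 3D libraries, against 55.6, 63 and 50.5 CPM in the 2D libraries (1.34 ± 0.07). ITGA3, a laminin receptor subunit, averaged 1993 ± 34 CPM in 3D and 859 ± 49.2 CPM in 2D. ITGA5, the fibronectin receptor subunit, averaged 365 ± 8.07 CPM in 3D and 158 ± 12.5 CPM in 2D. These 3 rose in both fits, with trend-adjusted values of 0.62, 0.61 and 0.68. ITGAV, the subunit of vitronectin receptors, averaged 56.3 ± 5.1 CPM in 3D and 149 ± 9.45 CPM in 2D (-1.41, trend-adjusted -0.51). ITGA6, the partner of ITGB4, fell by 0.66 and was -0.14 trend-adjusted. ITGB1, the common beta subunit, fell by 0.22 on the log2 scale in the counts and was 0.54 trend-adjusted. Of the EGF receptor family and its ligands 15 of 17 passed the filter, of which 5 rose and 8 fell, with a median log2 fold change of -0.23. Trend-adjusted, 6 rose and 2 fell, with a median of 0.11, so the balance turned with the fit. TGFA averaged 158 ± 7.08 CPM in 3D and 64.8 ± 1.18 CPM in 2D (1.28, trend-adjusted 1.54) and its receptor EGFR 212 ± 8.73 CPM in 3D and 311 ± 8.53 CPM in 2D (-0.55, trend-adjusted -0.43).

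Metalloproteinase and inhibitor genes were more often higher than lower in both fits. Of the metalloproteinases and inhibitors 21 of 30 passed the filter, of which 12 rose and 4 fell, with a median log2 fold change of 0.72. Trend-adjusted, 13 rose and 6 fell, with a median of 0.66. MMP14, the membrane-bound collagenase of invading cells, had 1643, 1801 and 1896 CPM in the 3D libraries, against 579.8, 566 and 509 CPM in the 2D libraries (1.69 ± 0.07, trend-adjusted 1.12). MMP9, a gelatinase, averaged 6.26 ± 0.529 CPM in 3D and 0.829 ± 0.291 CPM in 2D (2.90). MMP1, an interstitial collagenase, averaged 2414 ± 106 CPM in 3D and 1545 ± 40.2 CPM in 2D (0.64, trend-adjusted 0.97). TIMP2, the inhibitor that docks on MMP14, averaged 852 ± 23.5 CPM in 3D and 373 ± 21.9 CPM in 2D. TIMP3, which binds to matrix, averaged 449.9 ± 27.5 CPM in 3D and 784 ± 23.3 CPM in 2D. ADAMTS1, a protease of proteoglycans, averaged 50.8 ± 2.16 CPM in 3D and 164 ± 5.29 CPM in 2D. In the plasminogen and cathepsin list 21 of 22 passed the filter, of which 10 rose and 6 fell, with a median log2 fold change of 0.22. Trend-adjusted, 4 rose and 9 fell, with a median of -0.01, so the balance turned with the fit. PLAUR, the urokinase receptor, averaged 257 ± 18.6 CPM in 3D and 102 ± 11 CPM in 2D. PCSK6, a proprotein convertase, averaged 0.0749 ± 0.087 CPM in 3D and 3.22 ± 0.624 CPM in 2D. Among genes that modify collagen all 22 passed the filter, of which 15 rose and 7 fell, with a median log2 fold change of 0.55. Trend-adjusted, 10 rose and 8 fell, with a median of 0.11. LOXL4, a lysyl oxidase, had 239, 226 and 237 CPM in the 3D libraries, against 45.5, 46.7 and 46.8 CPM in the 2D libraries (2.34 ± 0.05, trend-adjusted 1.82). TGM2, a transglutaminase, averaged 708 ± 33.1 CPM in 3D and 244 ± 22.4 CPM in 2D. P3H2, a prolyl hydroxylase, averaged 37.7 ± 1.75 CPM in 3D and 92 ± 3.67 CPM in 2D (trend-adjusted -1.44).

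Among genes read as outputs of tension and cell shape, targets of YAP and TAZ fell more often than they rose. The balance of contractile actin genes and SRF targets turned with the fit. Of the targets of YAP and TAZ all 29 passed the filter, of which 9 rose and 15 fell, with a median log2 fold change of -0.16. Trend-adjusted, 9 rose and 16 fell, with a median of -0.20. ANKRD1, a much used target, had 201, 189 and 178 CPM in the 3D libraries, against 574, 501 and 585 CPM in the 2D libraries (-1.55 ± 0.07, trend-adjusted -1.22). CRIM1, a membrane protein that binds BMPs, averaged 235 ± 4.5 CPM in 3D and 659.9 ± 5.2 CPM in 2D. CTGF, a matricellular growth factor, fell by 0.43, while CYR61, its relative, rose by 0.30 (trend-adjusted -0.69 and 0.12, but -0.12 for CYR61 on the log2(TPM + 1) scale). Of the contractile actin genes and SRF targets 36 of 37 passed the filter, of which 21 rose and 13 fell, with a median log2 fold change of 0.29. Trend-adjusted, 12 rose and 17 fell, with a median of 0.05. TAGLN, the smooth muscle protein transgelin, had 5.99, 4.95 and 4.2 CPM in the 3D libraries, against 29.9, 29.4 and 28.9 CPM in the 2D libraries (-2.57 ± 0.10, trend-adjusted -3.14). FHL1, a LIM protein, averaged 5.68 ± 0.312 CPM in 3D and 26.2 ± 1.33 CPM in 2D. FLNA, MYH9 and TLN1 were higher in the counts. FLNA, filamin, averaged 3698 ± 166 CPM in 3D and 1235 ± 100.4 CPM in 2D (1.58, trend-adjusted 0.83). MYH9, a non-muscle myosin, averaged 2004 ± 83.3 CPM in 3D and 876 ± 38.8 CPM in 2D (1.19, trend-adjusted 0.61). TLN1, talin, averaged 1167 ± 42.1 CPM in 3D and 519 ± 27.7 CPM in 2D (1.17, trend-adjusted 0.60).

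Signalling lists were mixed. Of the immediate-early genes and MAP kinase feedback genes 35 of 36 passed the filter, of which 25 rose and 6 fell, with a median log2 fold change of 0.41. Trend-adjusted, 15 rose and 7 fell, with a median of 0.14. EGR1, a zinc finger factor, averaged 17.2 ± 1.24 CPM in 3D and 5.72 ± 1.22 CPM in 2D (1.61). ETV4, an ETS factor, averaged 92.4 ± 1.66 CPM in 3D and 35 ± 5.14 CPM in 2D (1.40). DUSP1, a MAP kinase phosphatase, averaged 25.9 ± 1.17 CPM in 3D and 49.5 ± 2.96 CPM in 2D (-0.94). Of TGF-beta and BMP genes 32 of 36 passed the filter, of which 12 rose (37.5%) and 12 fell (37.5%), with a median log2 fold change of 0.03. These shares were near those of all genes (40.2% higher and 40.1% lower). Trend-adjusted, 8 rose and 13 fell, with a median of -0.11. LTBP1, which tethers latent TGF-beta to matrix, averaged 142 ± 10.1 CPM in 3D and 49.95 ± 0.922 CPM in 2D. TGFBR3, the betaglycan co-receptor, averaged 10.5 ± 0.641 CPM in 3D and 41.6 ± 1.8 CPM in 2D. Of Notch and Wnt genes 30 of 38 passed the filter, of which 12 rose and 8 fell, with a median log2 fold change of 0.10. Trend-adjusted, 11 rose and 9 fell, with a median of -0.01. WNT7B, a Wnt ligand, had 59.7, 61.8 and 60.6 CPM in the 3D libraries, against 11.7, 13.8 and 11 CPM in the 2D libraries (2.32 ± 0.08, trend-adjusted 1.61). FZD7, a Wnt receptor, averaged 44.6 ± 2.26 CPM in 3D and 18.8 ± 0.482 CPM in 2D. FZD1, another such receptor, averaged 44.3 ± 2.48 CPM in 3D and 18.4 ± 0.7 CPM in 2D. JAG1, a Notch ligand, averaged 126 ± 1.41 CPM in 3D and 218 ± 5.93 CPM in 2D.

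Genes of cell identity went both ways. In the epithelial and mesenchymal list 21 of 31 passed the filter, of which 7 rose and 13 fell, with a median log2 fold change of -0.49. Trend-adjusted, 6 rose and 10 fell, with a median of -0.07. CDH1, E-cadherin, averaged 0.199 ± 0.128 CPM in 3D and 1.52 ± 0.379 CPM in 2D. CDH2, N-cadherin, averaged 0.216 ± 0.107 CPM in 3D and 1.23 ± 0.0543 CPM in 2D, so both were close to absent. EPCAM, an epithelial adhesion protein, averaged 9.1 ± 0.335 CPM in 3D and 23.8 ± 1.69 CPM in 2D (-1.38). CLDN1, a tight junction claudin, averaged 11 ± 1.36 CPM in 3D and 33.9 ± 2.29 CPM in 2D (-1.64). CLDN4 averaged 34.1 ± 2.44 CPM in 3D and 12.8 ± 0.336 CPM in 2D. Of mammary lineage genes 24 of 30 passed the filter, of which 12 rose and 11 fell, with a median log2 fold change of 0.02. Trend-adjusted, 10 rose and 11 fell, with a median of 0.05. Several luminal genes that were low in 2D were lower still in 3D. FOXA1, a pioneer factor of luminal cells, had 0, 0.109 and 0.0568 CPM in the 3D libraries, against 2.79, 2.99 and 3.77 CPM in the 2D libraries, which is 3 counts in 3D and 212 in 2D. TFF3, a trefoil peptide of luminal cells, averaged 0.0552 ± 0.0544 CPM in 3D and 1.55 ± 0.0676 CPM in 2D. ELF3, an epithelial ETS factor, averaged 1.79 ± 0.053 CPM in 3D and 5.61 ± 0.421 CPM in 2D. ESR1 and PGR, the hormone receptors this line lacks, were at no more than 7 counts in any library. Of 10 luminal markers, 8 passed the filter, 3 higher and 5 lower, and they summed to 1101 to 1188 TPM in 3D and 1038 to 1060.1 TPM in 2D, nearly all of it KRT8 and KRT18, which were higher in the counts but -0.14 and -0.26 trend-adjusted. In bulk RNA, fewer cells of a type and less RNA per cell cannot be told apart. Of 11 markers of A549 and lung epithelium, 4 passed the filter and 2 of these fell, TFF3 and NKX2-1. They summed to 2.7 to 3.47 TPM in 3D and 9 to 9.61 TPM in 2D, with SFTPC, SCGB3A2, F5 and CDH17 at 0 in all libraries. Fibroblast markers summed to 3.6 to 4.18 TPM in 3D and 5.88 to 6.81 TPM in 2D, with DCN at 0 throughout, and endothelial markers to 178 to 196 TPM in 3D and 176 to 209.7 TPM in 2D, nearly all ESAM. The part of other cells in these low counts was not tested. TFAP2C, a factor of mammary progenitors, had 51.3, 56.7 and 51 CPM in the 3D libraries, against 13.1, 13.2 and 13.6 CPM in the 2D libraries (2.00 ± 0.07, trend-adjusted 1.85). TP63, the basal cell factor, averaged 3.06 ± 0.347 CPM in 3D and 0.814 ± 0.177 CPM in 2D. SPDEF, a secretory cell factor, averaged 108 ± 6.92 CPM in 3D and 34.4 ± 5 CPM in 2D.

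Among keratins and desmosome genes 18 of 26 passed the filter, of which 10 rose and 7 fell, with a median log2 fold change of 0.46. Trend-adjusted, 7 rose and 10 fell, with a median of -0.25. JUP, plakoglobin, had 173, 182 and 189 CPM in the 3D libraries, against 37.1, 40.6 and 32.4 CPM in the 2D libraries (2.30 ± 0.07, trend-adjusted 1.63). KRT19 averaged 541 ± 33.6 CPM in 3D and 118 ± 3.96 CPM in 2D (2.20, trend-adjusted 1.27). DSG2, a desmosomal cadherin, averaged 115 ± 8.38 CPM in 3D and 283 ± 7.99 CPM in 2D (-1.31, trend-adjusted -0.71). Genes picked in other work for metastasis of MDA-MB-231 derivatives were more often higher in the counts. Of these 22 of 27 passed the filter, of which 16 rose and 5 fell, with a median log2 fold change of 0.58. Trend-adjusted, 11 rose and 7 fell, with a median of 0.13. CXCR4, the chemokine receptor of bone and lung homing, had 8.12, 8.42 and 8.23 CPM in the 3D libraries, against 48.8, 49.9 and 47.5 CPM in the 2D libraries, so every 3D library was lower (-2.56 ± 0.08, trend-adjusted -2.35). FSCN1, the bundling protein of invasive protrusions, averaged 45.1 ± 3.61 CPM in 3D and 15.5 ± 1.61 CPM in 2D (1.54, trend-adjusted 0.70). In the nerve and axon guidance list 32 of 40 passed the filter. Of these 14 rose (43.8%) and 10 fell (31.2%), against 40.2% and 40.1% of all genes. Their median log2 fold change was 0.12. Trend-adjusted, 11 rose and 17 fell, with a median of -0.12, so the balance turned with the fit. Beside NGFR, the neuropilin genes parted, with NRP1 at 589 ± 22.4 CPM in 3D and 325 ± 5.62 CPM in 2D and NRP2 at 15.9 ± 0.73 CPM in 3D and 40.3 ± 1.25 CPM in 2D. Of S100 and annexin genes 16 of 22 passed the filter, of which 11 rose and 4 fell, with a median log2 fold change of 0.62. Trend-adjusted, 7 rose and 5 fell, with a median of 0.10. Of splicing factors all 32 passed the filter, of which 9 rose and 16 fell, with a median log2 fold change of -0.14. Trend-adjusted, 19 rose and 8 fell, with a median of 0.21, the other way round.

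**Figure D5:**
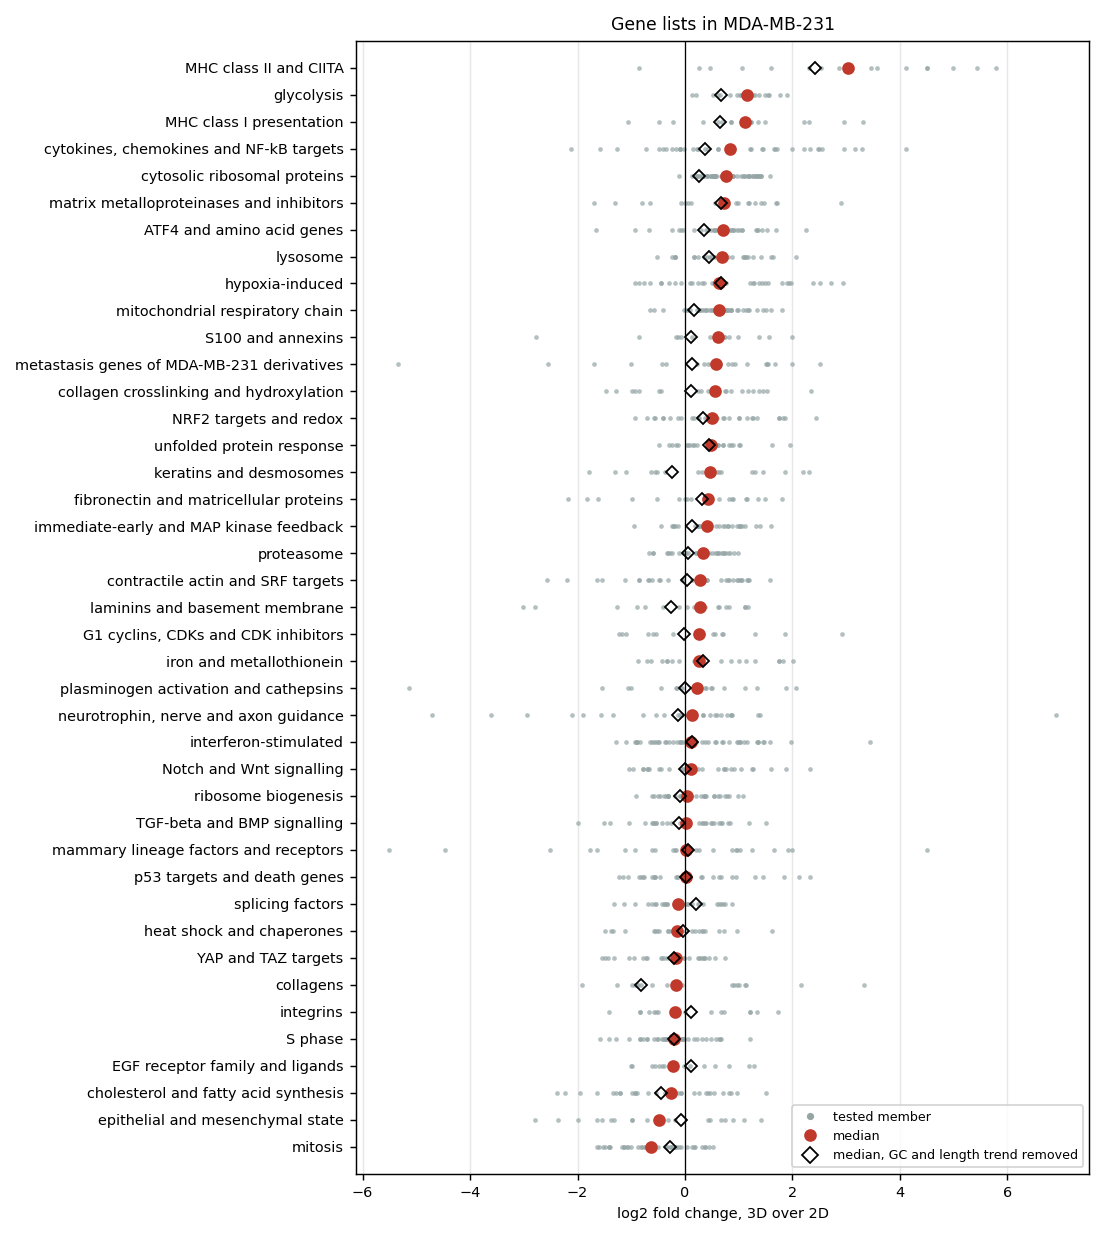
Log2 fold change of 3D over 2D for each tested gene of 41 lists in MDA-MB-231 (grey points), with the list's median (red) and its median with the GC and length trend removed (open diamond). MHC class II stands at 3.04, glycolysis at 1.15 and mitosis at -0.62; for keratins, laminins, integrins and splicing factors, among others, the 2 medians lie on opposite sides of 0.

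The genes with the largest differences in TPM, the length-scaled level, were abundant ones, and TPM gave another balance than the counts. On the log2(TPM + 1) scale with limma the median of all genes was -0.33, and of 10940 genes called 3106 were higher and 7834 lower (28.4% of calls higher, against 50% in the counts). S100A6, a calcium-binding protein, averaged 8329 ± 279 TPM in 3D and 2940.5 ± 289 TPM in 2D. FTL averaged 5423 ± 132 TPM in 3D and 2235 ± 78.6 TPM in 2D. ENO1, enolase, averaged 5716 ± 105 TPM in 3D and 3445 ± 77.7 TPM in 2D. GAPDH averaged 8518 ± 142 TPM in 3D and 5915 ± 496 TPM in 2D. RPS18 averaged 18684 ± 2713 TPM in 3D and 12836 ± 2616 TPM in 2D. RPLP0 averaged 7188 ± 109 TPM in 3D and 4764 ± 209 TPM in 2D. TMSB10, which encodes an actin-binding peptide, averaged 7939.6 ± 60.4 TPM in 3D and 6264 ± 179.7 TPM in 2D. All 7 also rose in the counts, and their trend-adjusted values were lower. S100A6 was 0.88 trend-adjusted (1.99 in the counts). FTL was 0.86 trend-adjusted (1.75 in the counts), ENO1 0.42 (1.16), RPLP0 0.34 (1.04) and GAPDH 0.10 (0.97). RPS18 was -0.35 (0.53 in the counts), and TMSB10 -0.04 (0.89), the last without a call in the trend-adjusted fit. Others were lower in TPM. ANXA2, annexin A2, averaged 3101 ± 162 TPM in 3D and 4755 ± 97.7 TPM in 2D. NPM1, nucleophosmin, averaged 2422 ± 107 TPM in 3D and 4057 ± 149 TPM in 2D. HSP90AA1, an inducible HSP90, averaged 1274 ± 45.1 TPM in 3D and 2449 ± 117 TPM in 2D. PPIA, cyclophilin A, averaged 2046 ± 60.5 TPM in 3D and 3022 ± 165 TPM in 2D. These 4 fell in the counts too, by 0.18, 0.31, 0.52 and 0.14 on the log2 scale, but PPIA did not pass when 2D replicate 1 or 3 or 3D replicate 2 or 3 was left out, nor trend-adjusted (-0.0061). In a fit over all 12 libraries neither ANXA2 nor PPIA passed (edgeR adjusted p = 0.0567 and 0.175). RPS27, RPS24 and RPL26 were lower in TPM but higher in the counts, at 0.43, 0.22 and 0.26, so their direction depends on the scale. Most of these abundant genes have processed pseudogenes, so their levels are uncertain.

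The change in MDA-MB-231 was set against that of A549 in 1 fit of all 12 libraries. The difference between the lines passed for 8582 of 15304 genes (56.1%), 4093 with a higher and 4489 with a lower log2 fold change in MDA-MB-231. Of the genes described above, PGK1 had 1762 CPM in 3D and 722 CPM in 2D in A549, and the difference of its log2 fold change between the lines was 0.27 ± 0.25, which did not pass (edgeR adjusted p = 0.397). COL4A1 had 4.9 CPM in 3D and 193 CPM in 2D in A549, so it was lower in 3D in both lines and fell less in MDA-MB-231 (difference 3.17 ± 0.19, edgeR adjusted p = 3.68e-09). NGFR had 0.238 CPM in 3D and 0.0723 CPM in 2D in A549, with a difference of 5.47 ± 1.18 (edgeR adjusted p = 0.000987). It was close to absent in A549, so the size of this difference rests on few counts in that line. CIITA had 0 CPM in 3D and 0.0372 CPM in 2D in A549, close to absent, so no fold is given for that line.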

How the data were processed

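RNA sequencing libraries of MDA-MB-231 and A549 cells were used as deposited. Per the submitters' processing notes, the authors quantified genes with RSEM against hg19, with the version of RSEM, the aligner and the strand setting not given in the sources used here. The deposited values were expected counts, which were rounded to whole numbers, TPM, and FPKM, which was not used. In R 4.3.3, edgeR 4.0.16 was fitted to the 6 MDA-MB-231 libraries alone (filterByExpr, TMM scaling, quasi-likelihood test, Benjamini-Hochberg adjusted p under 0.05), as the main test. CPM was computed from TMM-scaled library sizes. The trend-adjusted fit, added after seeing the data, took as offsets each library's trend of counts with transcript GC content (from GENCODE transcripts, paired by RefSeq ID or symbol) and with the deposited gene length. Promoters came from RefSeq on GRCh38.p14. The difference between lines was an interaction over all 12 libraries. DESeq2 1.42.0, limma 3.58.1 on log2(TPM + 1) and other scalings and filters were alternatives.

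Genes named were the 15 largest rises and falls among genes averaging 3 or more on the log2 CPM scale whose cultures did not overlap, the 8 largest TPM differences in each direction, up to 6 members of each list by smallest p plus key members, and the 8 largest differences between lines in each direction. Some genes that these rules name are not reported here or drawn. RFXAP, RFX5, RFXANK, TAP2, ERAP1, ERAP2, LDHB, PMVK, LSS, KIF11 and CCNB2 were chosen after their values were seen. The members and lists were chosen with earlier results of these data known. Counts limit precision most for genes of few reads, and the shallowest library (11624620 counts) is a 3D one.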

Additional observations from a re-analysis of the deposited data

Results flagged for a closer look

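For 16 genes, the 8 with the largest difference in each direction, the change in 3D differed between the lines in a direct test (interaction in edgeR over 12 libraries). Differences are the log2 fold change in MDA-MB-231 minus that in A549. On the higher side most of the difference came from a fall in A549. CCBE1, a secreted protein of lymphatic growth, had 26 ± 2.86 CPM in 3D and 35.4 ± 1.68 CPM in 2D in MDA-MB-231, and 0.0263 ± 0.0455 CPM in 3D and 25 ± 1.19 CPM in 2D in A549 (difference 8.28 ± 0.33, adjusted p = 5.43e-11). IL11, a cytokine, had 99 ± 3.91 CPM in 3D and 85.3 ± 1.69 CPM in 2D in MDA-MB-231, and 0.293 ± 0.125 CPM in 3D and 45.8 ± 1.17 CPM in 2D in A549 (difference 7.17 ± 0.18). COL5A1 had 127 ± 4.13 CPM in 3D and 58.5 ± 4.21 CPM in 2D in MDA-MB-231, and 2.77 ± 0.919 CPM in 3D and 144 ± 8.59 CPM in 2D in A549 (difference 6.65 ± 0.17), so it rose in MDA-MB-231 and fell in A549. CDH4, a cadherin, differed by 6.65 ± 0.28, DOCK2, a Rac activator, by 6.21 ± 0.28, and IL31RA, a cytokine receptor chain, by 5.59 ± 0.37. RUNX2, a bone transcription factor, differed by 7.13 ± 0.79, with all A549 3D libraries at 0. RPL21 differed by 6.12 ± 1.20, but its libraries varied widely (6.43 ± 7.26 CPM in 3D and 1.25 ± 2.16 CPM in 2D in MDA-MB-231) and it has many pseudogene copies, so it is uncertain. Its rise in MDA-MB-231 did not pass without 2D replicate 1 (1.93), 2D replicate 3 (1.96) or 3D replicate 2 (1.24), nor with DESeq2.

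On the lower side all 8 rose in A549, and LINC02582, KISS1 and PLCXD3 also fell in MDA-MB-231. TXNIP, a glucose-induced inhibitor of thioredoxin, had 381 ± 7.32 CPM in 3D and 254 ± 12.7 CPM in 2D in MDA-MB-231, and 45.8 ± 7.29 CPM in 3D and 0.0723 ± 0.0626 CPM in 2D in A549 (difference -8.55 ± 0.29, adjusted p = 1.03e-11). CST1, a cystatin, had 372 ± 25.6 CPM in 3D and 386 ± 36.5 CPM in 2D in MDA-MB-231, and 87.3 ± 4.23 CPM in 3D and 0.184 ± 0.0674 CPM in 2D in A549 (difference -8.90 ± 0.21). CP, which encodes ceruloplasmin, was close to absent in MDA-MB-231 and had 1091 ± 348 CPM in 3D and 5.17 ± 0.759 CPM in 2D in A549 (difference -9.62). LINC02582 and KISS1, among the largest falls in MDA-MB-231, differed by -9.89 ± 0.52 and -7.82 ± 0.71. NOX1, an oxidase, KRT4, a keratin, and PLCXD3, a phospholipase-like protein, differed by -12.0 ± 1.72, -8.25 ± 1.48 and -10.88 ± 0.72, with all MDA-MB-231 3D libraries at 0. A fitted fold change of a gene with a group at 0 depends on the prior count and sets no bound.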

How the results depend on the processing

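Direction and calls held for most genes under other scalings, filters and DESeq2, and changed mainly where the GC content or length trend was removed and on the TPM scale. The number of genes called was 10965, and between 9252 and 11427 under every setting run. With limma on log2(TPM + 1), 3106 genes were higher in 3D, 388 of them at least 2-fold. With the GC and length trend removed, at least 2-fold changes numbered 1611 (562 higher, 1049 lower), and 830 passed the test beyond 2-fold. Leaving out each library in turn gave 10544 to 10945 calls (5291 to 5489 higher, 5243 to 5456 lower), 3353 to 3715 at least 2-fold (1577 to 1786 higher, 1776 to 1967 lower), 1824 to 2186 beyond 2-fold, and 7937 to 8967 differences between lines. The 3D minus 2D difference ranged from -31.2 to -26.9 bases for fragment length and from 2.87 to 4.11 points for ribosomal RNA. For the 2 genes classed as mitochondrial, which are not all mitochondrial RNA, it ranged from 0.404 to 0.440 points. It was -0.00906 to -0.00813 for histone RNA, 0.00209 to 0.00269 for small RNA and 4.53 to 5.74 for the top 50 genes.

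Same-numbered libraries deviated from their group means with correlations of -0.05, 0.08 and -0.12, and differently numbered ones with correlations of -0.10 to 0.16. With 3 libraries per culture these values cannot settle whether replicate numbers pair the libraries. A replicate block called 10858 genes and ended 1 call among the named genes, that of PPIA.

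Of 239 genes named, 37 lost a call or turned in some setting, and the cause was not tested. With the GC and length trend removed, values turned to 0.17 for CDK1, 0.34 for ERAP1, -0.21 for ESAM, 0.31 for HIF1A, -0.29 for IL11, 0.54 for ITGB1, 0.24 for KIF11, -0.26 for KRT18, -0.14 for KRT8, 0.10 for SLC7A11, -0.041 for TMSB10 and 0.12 for TOP2A. In that setting RPL26 was -0.27, RPS18 -0.35, RPS24 -0.40 and RPS27 -0.61. With only the length trend removed, values turned to -0.44 for RPL26, -0.28 for RPS18, -0.46 for RPS24, -0.41 for RPS27 and 0.080 for TAP2. On the log2(TPM + 1) scale they were -0.12 for CYR61, -0.20 for HK2, -0.20 for IL11, -0.18 for IL31RA, -0.043 for MKI67, -0.16 for RFX5, -0.25 for RPL26, -0.28 for RPS24, -0.21 for RPS27 and -0.18 for RUNX2. All of these lay above the median of all genes on that scale, which was -0.33. Of the 16 differences between lines, that of RPL21 alone lost its call, with DESeq2. Genes near the limit of 3 counts, and the fold changes of genes at 0 in a group, are limited by depth.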
